A study of Homo sapiens with 2 samples.

Results

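Accessibility at the cytochrome P450 genes was described in CAMA-1, a human breast cancer cell line of epithelial type. The P450 genes were taken as the GENCODE protein-coding genes whose symbol is CYP followed by digits, a letter and digits, which gave 56 of the 20033 protein-coding genes. By the main known substrates of their products, 13 were placed with sterols and steroids, 21 with drugs and other xenobiotics, 14 with fatty acids and related lipids, and 7 with vitamins, and CYP20A1 has no assigned substrate. The 21 include CYP2D7, whose canonical transcript GENCODE marks as loss of function. Open chromatin was measured by ATAC-seq, in which the transposase Tn5 cuts accessible DNA and adds sequencing adapters to it. The 2 biological replicates of 50000 cells each came from untreated adherent cultures in DMEM with fetal bovine serum. They form 1 condition, so no groups of samples were compared and every value below is a description of this line with its spread over 2 libraries.

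Cytochromes P450 are haem enzymes that insert an oxygen atom into their substrate with electrons passed on by a reductase in the endoplasmic reticulum or by ferredoxin in mitochondria. Some make or break down hormones, bile acids, retinoic acid and vitamin D, and others, mainly in liver, clear drugs and pollutants. In breast tissue the family is known for aromatase (CYP19A1), which makes oestrogens from androgens, for CYP1B1, which hydroxylates oestrogens and is induced through the aryl hydrocarbon receptor (AHR), and for CYP4Z1, a fatty acid hydroxylase known from mammary tissue and breast tumours.

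The strength of a peak is given as the fold enrichment deposited by the authors, which is the height of the read pile at its summit over the background of the peak caller, with 1 added to each. A gene was said to have a TSS peak when a peak lay within 1 kb of any of its annotated transcription start sites (TSSs). The lists held 245736 peaks in replicate 1 and 259745 in replicate 2, and they hold peaks past the caller's threshold only, so weaker accessibility was not detectable. The lists give no read totals, and those that the study states were not used. Markers of luminal breast epithelium had a TSS peak in both replicates in 8 of 8 genes, with fold enrichments from 31.9 at ESR1 to 143 at KRT8 (means of the replicates). Basal markers had one in 4 of 4 genes but at a median of 18.6, against 86.6 for the luminal genes. Of the hepatocyte markers 3 of 6 had none (ALB, FGB and APOH), and of the blood markers 4 of 5 had none (PTPRC, CD3E, SPI1 and CD79A).

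A TSS peak was present in both replicates at 39 of the 56 P450 genes (69.6%), against 79.3% of all protein-coding genes. No P450 gene had a TSS peak in 1 replicate only, as 2.08% of all genes did, and 17 had none in either. Of the fatty acid genes 12 of 14 had a TSS peak (85.7%), whereas 8 of 13 steroid genes (61.5%) and 13 of 21 xenobiotic genes (61.9%) did. Of the vitamin genes it was 5 of 7 (71.4%), and CYP20A1 had one. When only the canonical TSS was used, 37 of the 56 had a peak, against 73.5% of all genes. Genes of a P450 cluster lie side by side and share ancestry, so these counts are not over independent genes and carry no test. With a window of 3 kb, where 85.0% of all genes had a TSS peak, the steroid class reached 11 of 13 and the fatty acid class stayed at 12 of 14. The lower count of steroid genes thus depended on the distance allowed. The xenobiotic class gained only CYP3A4 and CYP3A7.

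**Figure D1:**
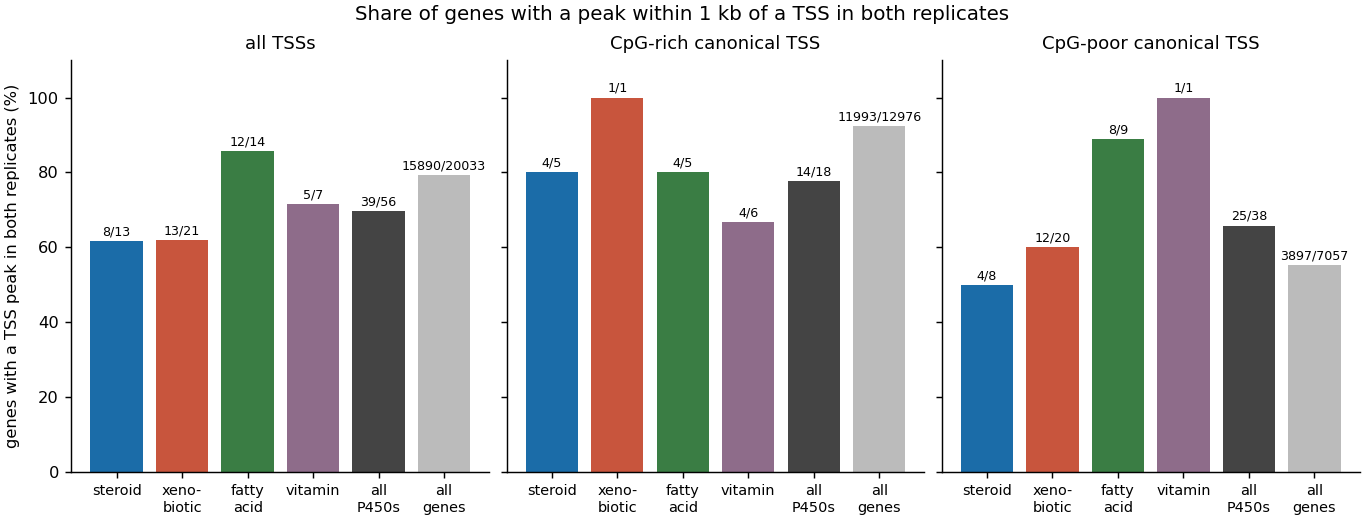
Share of genes (percent) with a peak within 1 kb of a TSS in both replicates, for the P450 substrate classes, all 56 P450 genes and all protein-coding genes, with the counts above each bar. The left panel holds all genes and the other panels split them by the CpG content of the canonical TSS, where 14 of 18 CpG-rich and 25 of 38 CpG-poor P450 genes had a peak.

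The peaks at P450 genes were mostly low. The 39 genes had a median fold enrichment of 27.2 in replicate 1 and 25.4 in replicate 2, and the median of the replicate means was 26.8, against 52.6 over the 15890 genes of the genome with a TSS peak in both. Only 8 of the 39 lay above that genome-wide median, and the median P450 gene stood at percentile 23.6. Within their own chromosome, where a gain or loss of a whole chromosome would move all genes alike, the median percentile was 20.3; copy number was not measured here. The class medians were 28.1 for the steroid genes, 12.7 for the xenobiotic genes, 28.4 for the fatty acid genes and 39.1 for the vitamin genes. The steroid genes ran from 5.76 to 105, the xenobiotic genes from 4.85 to 78.9, the fatty acid genes from 6.29 to 101 and the vitamin genes from 8.01 to 150, so the classes overlapped over most of their range. In bulk libraries a site open in few cells and a site weakly open in all cells cannot be told apart.

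The replicates gave close values for these genes. The absolute log2 ratio of replicate 2 to replicate 1 had a median of 0.10 over the 39 genes and was within 0.5 at 38 of them. Over all genes with a TSS peak the median was 0.11.

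**Figure D2:**
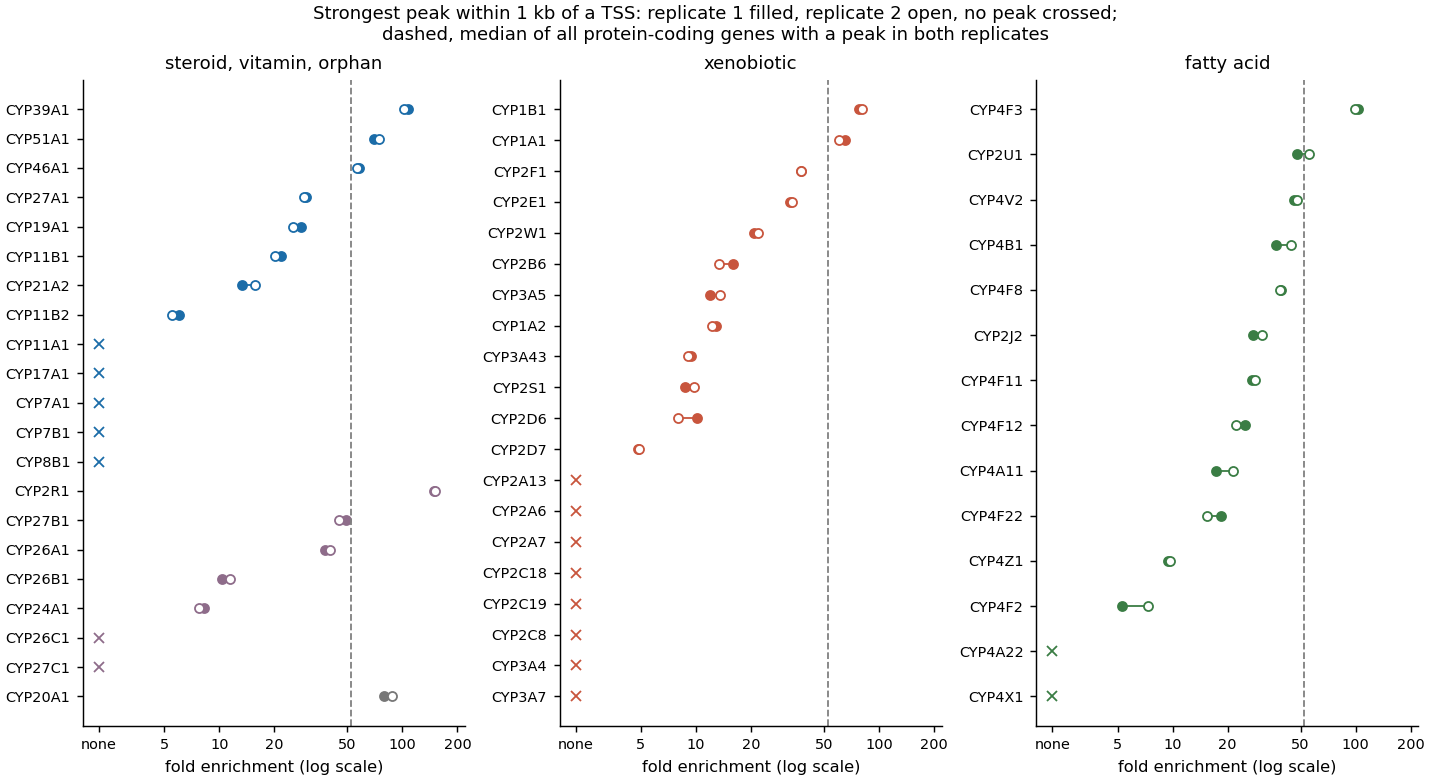
Fold enrichment (log axis) of the strongest peak within 1 kb of a TSS of each P450 gene, replicate 1 as filled and replicate 2 as open points, with crosses at genes without a TSS peak; 1 gene is left out. CYP2R1 stands highest at 149 and 150, 17 genes have no TSS peak, and most points lie left of the dashed line at 52.6, the median of all protein-coding genes with a peak in both replicates.

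Most P450 genes had starts poor in CpG, the dinucleotide that is dense at the starts of widely expressed genes. The 1 kb around a canonical TSS was called CpG-rich when at least 50% of its bases were G or C and the CpG ratio, observed over expected, was at least 0.6. Only 18 of the 56 P450 genes (32.1%) were CpG-rich, against 64.8% of all genes. Among CpG-poor genes, 25 of 38 P450 genes (65.8%) had a TSS peak in both replicates, against 55.2% of all CpG-poor genes. Among CpG-rich genes it was 14 of 18 (77.8%), against 92.4% of all. The median fold enrichment was 49.3 at the CpG-rich and 19.4 at the CpG-poor P450 genes with a peak. The xenobiotic class held a single CpG-rich gene, CYP1B1, and 20 CpG-poor ones, of which 12 had a peak. The fatty acid class had a peak at 8 of its 9 CpG-poor genes and the steroid class at 4 of 8. The part of CpG content in the class counts was not tested.

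**Figure D3:**
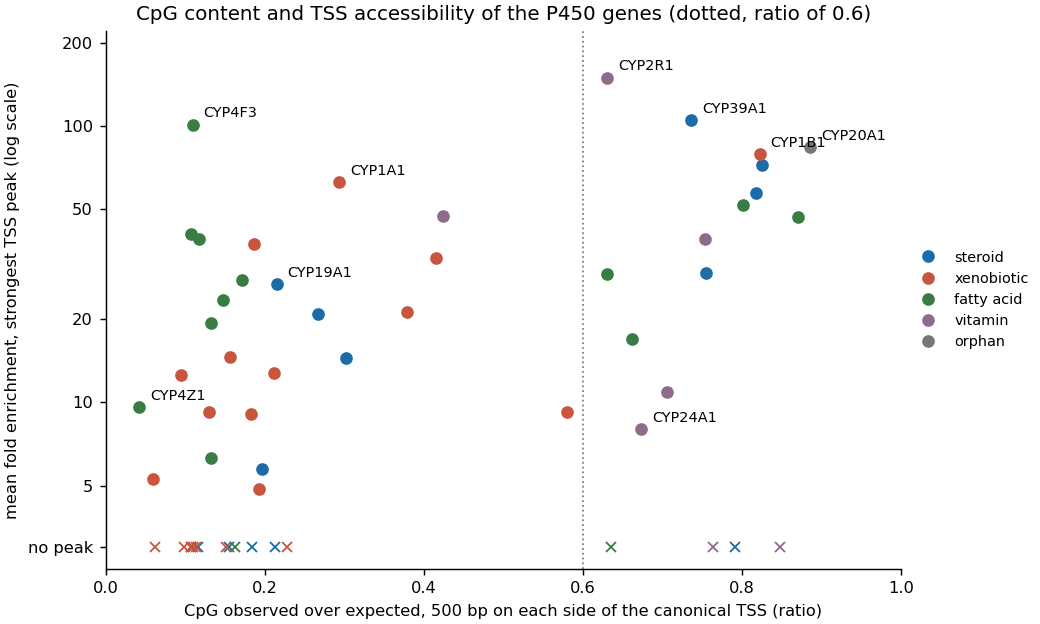
CpG ratio of the kilobase around the canonical TSS against the mean fold enrichment of the strongest TSS peak (log axis) for the 56 P450 genes, colored by substrate class, with crosses for genes without a peak. CYP4F3 at 101 stands above the other CpG-poor genes, and 4 CpG-rich genes (CYP7B1, CYP4X1, CYP26C1 and CYP27C1) have no TSS peak.

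The steroid genes with the strongest TSS peaks were CYP39A1, CYP51A1, CYP46A1 and CYP27A1. CYP39A1, which hydroxylates oxysterols on the way to bile acids, had a fold enrichment of 107 in replicate 1 and 102 in replicate 2 (percentile 85.6). Its peak also lies within 1 kb of a TSS of SLC25A27, so it cannot be given to CYP39A1 alone. CYP51A1, the lanosterol demethylase of cholesterol synthesis, had 69.9 and 74.7, over a start that it shares with its antisense RNA CYP51A1-AS1. CYP46A1, the cholesterol hydroxylase known from neurons, had 58.0 and 56.8. CYP27A1, a mitochondrial sterol hydroxylase, had 29.9 and 29.0, at an inner start in the first intron; its canonical start was 793 and 792 bp from a weaker peak of 20.9 and 25.4. The canonical starts of all 4 genes are CpG-rich. Of the genes of adrenal and gonadal steroid hormones, CYP11B1, which makes cortisol, had 21.6 and 20.1, 680 and 716 bp from an inner annotated start. The region nearest its canonical start had 3.68 and 4.20. CYP11B2, the aldosterone synthase, had 5.98 and 5.53, with read piles of 25 and 24 at the summit. CYP21A2, a hydroxylase of progesterone, had 13.3 and 15.7, but it has a near-identical pseudogene, and how reads with several matches were placed is not stated, so its value is uncertain. CYP11A1, which cuts the cholesterol side chain, and CYP17A1, which leads to androgens, had none. CYP7A1, CYP7B1 and CYP8B1, all of bile acid synthesis, had none either. The nearest peak to any start of CYP17A1 lay 1318 bp away in replicate 1 and 1320 bp in replicate 2, just past the limit, in its second intron, at fold 52.0 and 47.3. The nearest peak to CYP7A1 lay 13098 bp away in both.

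CYP19A1 (chr15:51208057-51338601, minus strand) had a TSS peak in both replicates, but none at its canonical start. GENCODE gives the gene 15 starts, spread over most of its length, since aromatase is transcribed from alternative first exons in different tissues. The TSS peak, at chr15:51243754-51244132 in replicate 1, had a fold enrichment of 28.1 and 25.4 (summit heights of 121 reads, 95% Poisson interval 100 to 145, and 114 reads, 94.0 to 137, which cover counting error only). It lay 690 and 693 bp from the nearest GENCODE start, within the first intron of the canonical transcript. The canonical start lay 2137 and 2116 bp from the nearest peak. The RefSeq promoter table used here lists 7 starts for the gene, and the canonical start is not among them. Only the start at position 51243915 lay under a peak in both replicates, 851 bp from the nearest GENCODE start, and the other 6 were 509 to 10348 bp from one. The promoter that the RefSeq table gives for this start runs from 250 bases before to 50 after it (hg38, chr15:51243866-51244165, minus strand). It is shown because no other listed start of aromatase lay under a peak in both replicates. Its 253 bases under the peaks of both replicates are in capitals.
CYP19A1: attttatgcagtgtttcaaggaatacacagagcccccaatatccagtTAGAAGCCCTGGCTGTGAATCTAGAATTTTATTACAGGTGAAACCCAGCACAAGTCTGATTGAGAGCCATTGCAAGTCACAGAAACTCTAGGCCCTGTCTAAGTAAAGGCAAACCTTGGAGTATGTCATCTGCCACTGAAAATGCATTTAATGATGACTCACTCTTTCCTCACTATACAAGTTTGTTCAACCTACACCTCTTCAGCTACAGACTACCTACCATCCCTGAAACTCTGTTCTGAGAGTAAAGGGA

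The body of CYP19A1 held 14 regions more than 1 kb from its own starts and shared by both replicates (peaks overlapping by at least 1 bp), the most of any P450 gene. Over its length this made 12.0 regions per 100 kb, against 8.07 over all protein-coding genes. The strongest stood in the first intron. The region at chr15:51281244-51281713 had 47.6 and 42.7, and that at chr15:51335830-51336338, which is 2237 bp from the nearest of its starts at the 5′ end, had 43.0 and 44.4. Both were above the TSS peak of the gene. Another, at chr15:51286655-51287189, had 29.0 and 35.8, also above the TSS peak, and the other 11 had means of 3.84 to 10.7.

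**Figure D4:**
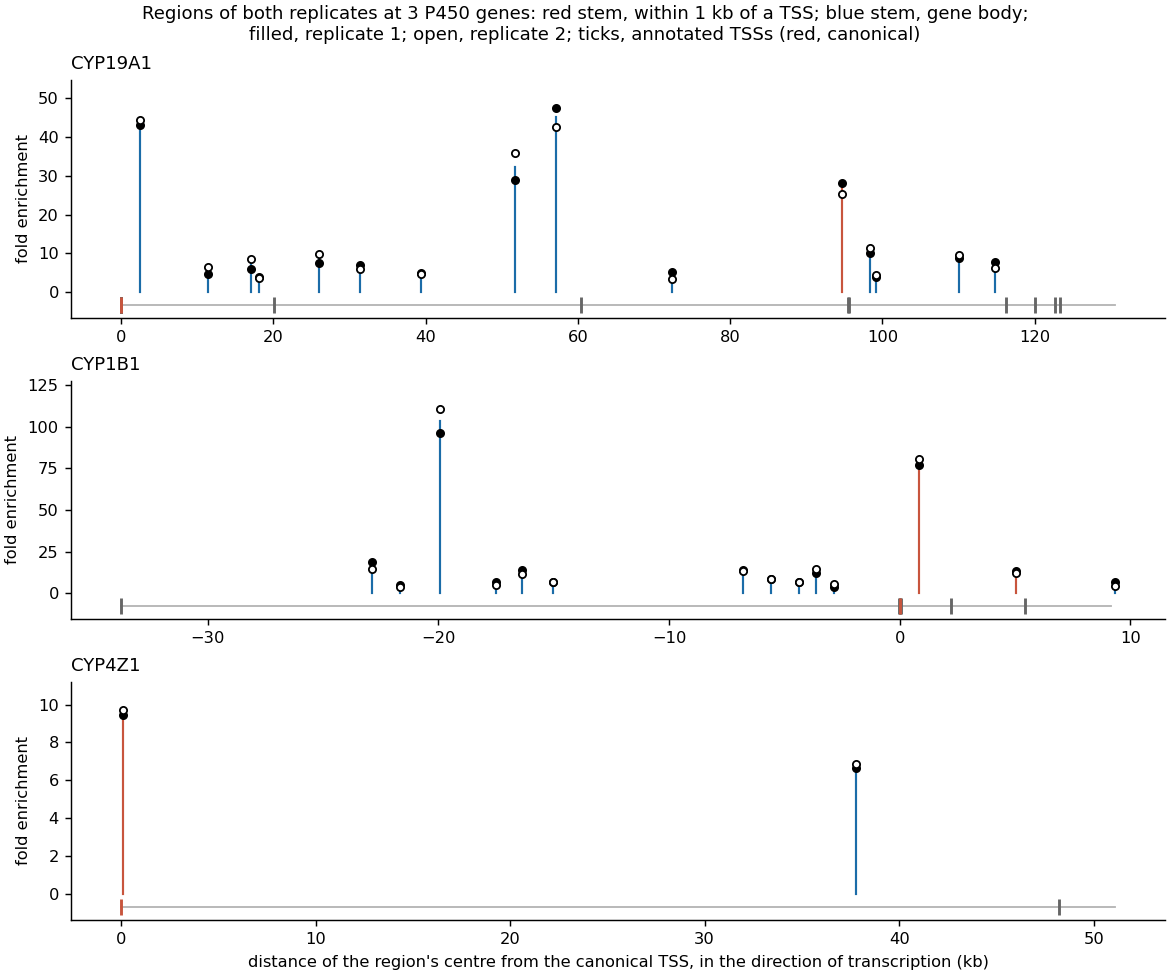
Fold enrichment of the regions of both replicates at CYP19A1, CYP1B1 and CYP4Z1 against the distance of the region's centre (kb) from the canonical TSS, with red stems within 1 kb of a TSS, blue stems in the gene body, and ticks at annotated TSSs. CYP19A1 has 14 body regions and a TSS peak far inside the gene, CYP1B1 has a body region of 96.2 and 111 upstream of its canonical start, and CYP4Z1 has a low TSS peak and 1 body region.

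CYP1B1 (chr2:38066973-38109902, minus strand) had the strongest TSS peak of the xenobiotic class, at 77.3 and 80.5 (335 reads, 95% Poisson interval 300 to 373, and 363 reads, 327 to 402). This put it at percentile 72.1 of all genes with a TSS peak and at 78.4 on its own chromosome. The peak covered the canonical start and was broad, from 38072581 to 38078082 in replicate 1, and it also lay within 1 kb of a start of the antisense RNA CYP1B1-AS1. Its gene body held 12 regions, or 33.5 per 100 kb. One of them, at chr2:38094993-38097155, was stronger than the TSS peak, at 96.2 and 111. It lay 12747 bp from the nearest start of the gene, between the canonical start and a single annotated start farther upstream, so it is inside the gene only by that transcript. The other 11 had means of 4.30 to 16.6. All 12 lay outside the canonical transcript, and 5 of them were within 1 kb of a start of CYP1B1-AS1 or RMDN2-AS1.

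CYP1A1, the main AHR target among the P450 genes, was second in the class at 65.1 and 60.4, although its start is CpG-poor. The peak was 3074 bp wide over both replicates. It held 4 matches to the core at which AHR and its partner ARNT bind (TNGCGTG on either strand), whose nearest bases were 497, 892, 980 and 1055 bp upstream of the canonical start. None of the 4 lay in the middle 300 bp of the region, the window in which regions were compared. In that window the core was found in 4 of the 178 regions at P450 genes (2.25%), against 3.41% of all 215195 regions of both replicates. In whole regions it was 15 of 178 (8.43%) against 6.69%, so the order of the shares turned with the width searched. The whole CYP1B1 TSS region held 6. A stretch of the CYP1A1 region is shown (hg38, chr15:74726411-74726610, minus strand) with 3 of the cores, or their reverse complement, in capitals.
CYP1A1: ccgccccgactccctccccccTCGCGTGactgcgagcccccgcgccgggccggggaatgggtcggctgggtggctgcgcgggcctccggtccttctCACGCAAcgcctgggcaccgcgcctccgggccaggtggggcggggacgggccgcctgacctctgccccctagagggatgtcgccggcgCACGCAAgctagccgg

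The other xenobiotic genes with a TSS peak were lower. CYP2F1, known from lung, had 37.3 and 37.6, at a peak 737 and 666 bp from its nearest start. CYP2E1, which oxidizes ethanol, had 32.7 and 33.6. The CYP2E1 peak lay over an annotated start upstream of the canonical one, and the region near the canonical start had 5.29 and 4.86. CYP2W1 had 20.7 and 21.9 over inner annotated starts, against 5.98 and 6.19 at the region near its canonical start. CYP2B6 had 15.9 and 13.3, and CYP1A2, beside CYP1A1, had 12.9 and 12.2. The CYP2D6 peak (10.1 and 7.96) lay near an inner start of a transcript marked for decay, and in replicate 2 its canonical start was 1141 bp from a peak. CYP3A5 had 12.0 and 13.5 over its canonical start, and CYP2S1 had 8.74 and 9.73. CYP2D7, with a loss-of-function canonical transcript, had 4.83 and 4.86, the lowest mean of the class. Without a TSS peak were 8 genes of the class. CYP3A4, which clears many drugs, had none, and its nearest peak, in the first intron, lay 1293 bp from its start in both replicates at fold 15.2 and 17.5. CYP3A7, the fetal form, had none, at 1388 and 1354 bp. CYP2C8, CYP2C18 and CYP2C19 had none. CYP2A6, CYP2A7 and CYP2A13 had none. The CYP2A genes, CYP2D6 and CYP2D7, and the CYP3A genes are near-identical copies in part, so their values are uncertain.

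Some promoters of these families held a match to CAAAGTCCA, the more conserved part of a binding site of the liver factor HNF4A, on either strand. The RefSeq table has promoters for 39 of the P450 genes, 52 in all, and the match was in 6 of the 52 (11.5%), against 0.384% of the 35116 promoters of the table. The 6 belong to CYP2A6, CYP2A7, CYP2A13, CYP2B6, CYP2C8 and CYP2R1, and the first 3 are copies of each other. They are shown with the match in capitals, each with 15 bases on both sides (RefSeq promoters, hg38). Of the 6 genes only CYP2B6 and CYP2R1 had a TSS peak, against 69.6% of the 56 P450 genes and 79.3% of all genes. The values of the CYP2A copies are uncertain. In the 300-bp windows of regions at P450 genes the match was in 0 of 178, against 0.408% of all regions. In whole regions it was in 1 of 178 (0.562%), against 0.730%. HNF4A itself had no TSS peak, with its nearest peak 1358 and 1341 bp from a start. A link between the match and the peaks was not tested.
CYP2A6 (chr19:40850480-40850518, minus strand): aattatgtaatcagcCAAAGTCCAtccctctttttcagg
CYP2A7 (chr19:40882264-40882302, minus strand): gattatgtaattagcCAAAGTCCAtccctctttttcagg
CYP2A13 (chr19:41088380-41088418, plus strand): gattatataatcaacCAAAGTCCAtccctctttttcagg
CYP2B6 (chr19:40991036-40991074, plus strand): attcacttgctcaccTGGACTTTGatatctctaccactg
CYP2C8 (chr10:95069527-95069565, minus strand): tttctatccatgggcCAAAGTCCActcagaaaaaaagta
CYP2R1 (chr11:14892374-14892412, minus strand): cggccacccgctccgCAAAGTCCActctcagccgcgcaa

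The fatty acid class was led by CYP4F3, which hydroxylates leukotrienes in neutrophils, at 103.5 and 98.6 (percentile 84.1, and 90.7 on its own chromosome). This was the strongest peak at any CpG-poor P450 gene. CYP2U1 had 47.9 and 55.5, CYP4V2, known from a corneal and retinal dystrophy, had 46.0 and 48.0, and CYP4B1 had 36.6 and 44.4. The CYP4B1 peak lay over starts upstream of the canonical one, and the peak over the canonical start had 24.85 and 36.0. The CYP2U1 peak lay by CYP2U1-AS1 and the CYP4V2 peak by FLJ38576. The rest ran from CYP4F8 at 39.3 and 38.7, which were different peaks in the 2 replicates, down to CYP4F2 at 5.29 and 7.30. All 6 CYP4F genes on chromosome 19 had a TSS peak. CYP4A22 and CYP4X1 had none, the nearest peaks being 6293 and 4244 bp from a start in replicate 1. The CYP4X1 start is CpG-rich, and a region in its second intron reached 54.1 and 52.0. The CYP4F genes and the pair CYP4A11 and CYP4A22 are also close copies.

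CYP4Z1 (chr1:47067231-47118318, plus strand) had a TSS peak in both replicates over its canonical start, but a low one, at 9.43 and 9.73 (40 reads, 95% Poisson interval 28.6 to 54.5, and 43 reads, 31.1 to 57.9). It stood at percentile 7.83 of all genes with a TSS peak, below all fatty acid genes with a peak other than CYP4F2. Its start had the lowest CpG ratio of the 56 P450 genes, 0.04. The gene body held 1 region in 51088 bp, in the eighth intron, at 6.67 and 6.85. The RefSeq promoter of the gene (hg38, chr1:47066981-47067280, plus strand) is shown as that of a mammary P450 gene with a small peak, with the 105 bases under the peaks of both replicates in capitals.
CYP4Z1: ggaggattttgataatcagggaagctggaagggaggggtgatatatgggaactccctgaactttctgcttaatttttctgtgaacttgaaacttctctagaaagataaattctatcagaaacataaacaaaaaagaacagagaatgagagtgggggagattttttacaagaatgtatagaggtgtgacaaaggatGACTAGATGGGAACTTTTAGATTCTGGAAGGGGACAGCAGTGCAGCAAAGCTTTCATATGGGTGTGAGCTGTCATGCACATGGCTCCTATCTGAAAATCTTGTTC

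The vitamin genes act on vitamin D, retinoic acid or vitamin A. CYP2R1, the main hydroxylase of the first step of vitamin D activation, had the strongest TSS peak of all P450 genes, at 149 and 150 (647 and 678 reads; percentile 95.9). CYP27B1, which makes the active hormone, had 49.2 and 44.9. CYP24A1, which inactivates the hormone, had 8.28 and 7.74. CYP26A1, CYP26B1 and CYP26C1 degrade retinoic acid. CYP26A1 had 37.7 and 40.5, at a region 125 to 133 bp from a start and also within 1 kb of an unnamed gene, CYP26B1 had 10.4 and 11.5, and CYP26C1 had none. CYP27C1, which acts on vitamin A, had no TSS peak, but its body held 5 regions, among them 1 in the first intron at 78.7 and 76.7 and 1 in the fifth at 64.7 and 68.3.

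CYP26A1 is a classical target of the retinoic acid receptor. Its promoter held a direct repeat of AGTTCA with a spacer of 5 bases (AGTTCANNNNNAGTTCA on either strand), found in 4 of the 35116 promoters. Only this exact form of the repeat was searched, so the count of 4 holds for this form alone. The form searched is the one that this promoter carries, and the motifs were chosen with earlier results known. The match at CYP26A1 and its rarity are therefore no independent finding, and a link to retinoic acid was not tested. This repeat lay under a second, low peak over the start, at 5.98 and 5.53, and not under the strong one. The promoter (RefSeq, hg38, chr10:93073643-93073942, plus strand) is printed with the repeat in capitals.
CYP26A1: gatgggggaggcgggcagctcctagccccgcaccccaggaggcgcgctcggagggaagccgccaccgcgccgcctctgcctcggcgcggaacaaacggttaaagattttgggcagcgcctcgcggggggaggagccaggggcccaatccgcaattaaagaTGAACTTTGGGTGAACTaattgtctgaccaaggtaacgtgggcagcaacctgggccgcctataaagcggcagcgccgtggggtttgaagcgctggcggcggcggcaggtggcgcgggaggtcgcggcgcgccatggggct

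CYP20A1, which has no known substrate, had 79.4 and 88.2, at a peak also within 1 kb of a start of an unnamed gene. CYP20A1 was the only P450 gene with an AHR core in a promoter of the RefSeq table, 1 of 52, against 5.51% of all promoters. That table has no promoter of CYP1B1, so its cores could not be counted. The promoters begin 250 bases before a start, so the CYP1A1 cores, 497 bp or more upstream, lay outside the search. The estrogen response element GGTCANNNTGACC was in 0 of the 52 promoters and in 0 of the 178 windows, against 0.0902% of the windows of all regions. The site TCAAGGTCA of the NR5A factors, known from steroidogenic glands, was in 0 of the 52 promoters and in 1 of the 178 windows (0.562%), against 0.533% of the windows of all regions. In whole regions it was 3 of 178, against 0.908%. A match is only a string of letters, and no match says nothing of the factor.

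Away from their starts, 36 of the 56 P450 genes held at least 1 region in the gene body, against 70.2% of all genes. The 112 body regions made 7.26 per 100 kb, against 8.07 for all genes, with 6.67 for the steroid, 7.06 for the xenobiotic and 8.80 for the fatty acid class. CYP19A1 held 14 of them and CYP1B1 held 12, and without both genes the density was 6.18. The next were CYP4B1 and CYP7B1 with 9 each. Of the 112 regions, 33 lay in first introns, 52 in later introns, 8 in exons and 19 outside the canonical transcript, and 6 lay within 1 kb of a start of another gene. The median fold enrichment of the body regions was 8.67, against 9.84 over all regions of the genome. Among the 17 genes without a TSS peak, 9 held a body region. Of 27 genes with both a TSS peak and a body region, 11 had a body region stronger than the TSS peak, among them CYP4V2 (72.5 and 82.7) and CYP3A43 (69.5 and 72.3, against 9.43 and 9.07 at its start).

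Most P450 genes lie in clusters of neighbours, and these differed in how many regions they held. Genes less than 300 kb apart were joined, which gave 9 clusters. The CYP2C cluster on chromosome 10 held 3 regions in 386 kb, or 0.778 per 100 kb, against 7.33 over the genome. No region was found in 174 kb from the start of CYP2C18 on, a stretch that holds CYP2C18 and CYP2C19 whole, and the nearest peak to a start of CYP2C19 lay 84279 bp away in replicate 1 and 84251 bp in replicate 2. The CYP3A cluster held 6.88 per 100 kb. The CYP4 cluster on chromosome 1 held 9.95, the CYP4F cluster 11.7 and the CYP2A, 2B, 2F and 2S cluster 12.6, where the strongest region, at 161 and 154, lay between CYP2A7 and CYP2B6. These spans also hold other genes. The CYP1A, CYP11B, CYP26 and CYP2D clusters are short, at 17.1 to 45.5 kb, and held 17.4 to 19.8 per 100 kb from 3 to 9 regions each. How reads that match several copies were placed is not stated for any of them.

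**Figure D5:**
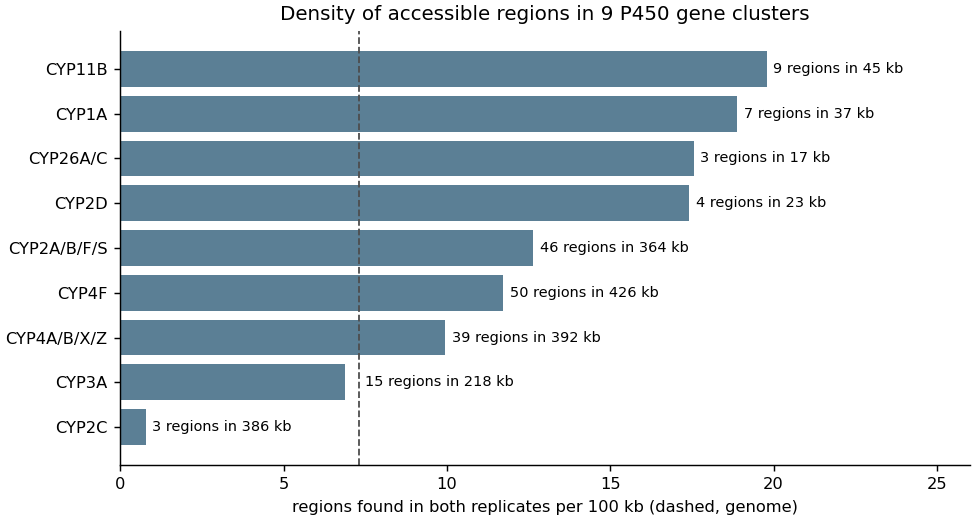
Regions found in both replicates per 100 kb in the 9 P450 gene clusters (bars from 0) and over the genome (dashed line at 7.33), with the number of regions and the span of each cluster. The CYP2C cluster, with 3 regions in 386 kb, is the lowest of the 9.

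Genes that work with the P450 enzymes were given from lists of the pathway, whose counts are to be read against the share of 79.3% over all protein-coding genes. The redox partners had a TSS peak in 6 of 6 genes, with the highest values at FDXR (101 and 80.5) and CYB5A (75.7 and 79.6), and POR, the reductase of the microsomal enzymes, had 61.2 and 61.0. The AHR pathway had one in 8 of 8 genes, led by NQO1 (171 and 188) and TIPARP (116 and 125), with AHR itself at 26.7 and 27.6. Of the regulators of xenobiotic and liver P450 genes, 4 of 8 had a TSS peak, the strongest at RXRA (68.8 and 63.0) and CEBPA (59.4 and 64.8), and NR1I2, HNF4A and NR1H4 were among those with none. Of the genes of steroid synthesis and oestrogen metabolism, 8 of 13 had one, and HSD17B4 (87.2 and 90.0) and HSD17B7 (88.4 and 84.9) were among the strongest. NR5A1, NR5A2, HSD3B2, HSD17B2 and SULT1E1 had none in both, though NR5A1 (4.37) and NR5A2 (16.3) had one in replicate 1 only. The P450 genes with other symbols were TBXAS1, the thromboxane synthase, at 25.8 and 29.2, and PTGIS, the prostacyclin synthase, which had none.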

How the data were processed

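Open chromatin of CAMA-1 was measured by ATAC-seq in 2 biological replicates of 1 condition. Per the processing notes of the submitters, reads were trimmed with Trim Galore 0.6.5 and aligned to hg38 with Bowtie2 2.3.5.1, and peaks were called with MACS2 2.2.6. Each replicate had its own list. Caller settings and the treatment of duplicates and of reads with several matches are not given in the sources used here. Of the deposited values, the fold enrichment (the ratio of peak to background as the authors' caller gave it) was the main measure, the −log10 q-value an alternative, and the score and −log10 p-value were left aside. The lists give no read totals, and those the study states were not used, so no value was scaled to depth.

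Fold enrichments fell on steps of 0.230 in replicate 1 and 0.221 in replicate 2, which gave a background height of 3.35 and 3.52 reads and whole summit heights (to within 7.91e-05 of a step), from which the Poisson intervals were computed. TSSs came from GENCODE release 44. Regions are peaks of both replicates that overlap by at least 1 bp, merged, and a body region lies more than 1 kb from any start of its own gene. Clusters join P450 genes less than 300 kb apart. Scripts ran in Python 3.11.15 with scipy 1.17.1, numpy 2.4.6 and, for plots, matplotlib 3.10.9. On simulated lists the code found 200 of 200 TSS peaks and 80 of 80 body regions.

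The genes, substrate classes, lists and motifs were chosen with earlier results of these data known. Named were CYP19A1, CYP1B1 and CYP4Z1, the 4 genes of each class with the highest mean fold enrichment, genes without a TSS peak, those with the most body regions, and, of the lists, the 2 strongest and those without a peak; other P450 genes, HSD17B7, POR, AHR and the marker genes were named after their values were seen. A few genes that this rule names are not reported here, though they are in the counts. With 1 condition no test was run. Alternatives were other TSS windows and start sets, a −log10 q of at least 10, other region, class and CpG rules, and the omission of each replicate.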

Additional observations from a re-analysis of the deposited data

How the results depend on the processing

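Of 119 values of the counts, medians and densities under alternatives, 78 kept within 1.5 times (counts) or 1 SD between the replicates (medians and densities), and 41 did not. That SD came from the same 2 replicates, so medians on 1 replicate alone were close to bound to keep within it. Medians by −log10 q are on another scale than that SD, so the limit says nothing of them. With a TSS window of 100 bp, 28 of 56 P450 genes (50.0%) had a TSS peak in both replicates, against 73.2% of all genes, with 5 steroid, 8 xenobiotic and 11 fatty acid genes; CYP19A1 was among the 11 genes lost. With 3 kb it was 45 of 56 (80.4%), against 85.0%. Without genes whose TSS lies within 1 kb of another gene's TSS, 5 of 8 steroid genes had a peak. At a CpG ratio of 0.75, which fewer P450 genes reach, 8 CpG-rich genes had a peak. With the RefSeq promoter window, which covers fewer genes, 16 CpG-poor genes did. Both counts are over fewer genes than under the main rule, so a smaller count is not a smaller share. The shares of all protein-coding genes under these rules were not computed. Adding the RefSeq starts, an alternative chosen after seeing the data, changed no count.

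Medians of fold enrichment at 100 bp were 31.2 for all P450 genes, 57.4 for the steroid and 17.0 for the xenobiotic genes. By −log10 q, another scale, they were 131 for all, 141 for the steroid, 44.9 for the xenobiotic and 143 for the fatty acid genes. On 1 replicate alone they were 25.4 to 27.2 for all P450 genes and 12.9 to 13.3 for the xenobiotic genes.

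Body regions per 100 kb over all P450 genes were 6.74 with a reciprocal overlap of 50%, 5.38 at a −log10 q of at least 10, 6.50 beyond 3 kb from an own TSS, 6.87 away from any gene's TSS, 6.18 without CYP1B1 and CYP19A1 (chosen after seeing the data), and 8.10 to 8.55 on 1 replicate alone, where no overlap is asked for. In that order the xenobiotic genes had 6.20, 4.92, 6.09, 5.99, 4.86 and 7.91 to 8.13. The steroid genes had 4.67 at the stricter q, 5.44 beyond 3 kb, 5.38 without CYP19A1 and 7.83 to 8.83 on 1 replicate. The fatty acid genes had 8.19 with the reciprocal overlap, 7.59 at the stricter q, 9.22 beyond 3 kb and 9.11 to 9.41 on 1 replicate. In whole regions in place of 300-bp windows, 15 regions in place of 4 held an AHR core, 3 in place of 1 an NR5A site and 1 in place of 0 an HNF4A site.

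Depth limits what the lists can show: peaks under the threshold of the caller are missing, so a P450 gene without a TSS peak was not shown to be closed. No paired analysis was possible because there is only 1 condition, to which each replicate belongs.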
